A study of Homo sapiens with 12 samples.

Results

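The response of iPS cell-derived enterocytes to vitamin D3 alone was examined by comparing the VD3 group with the Control group, which are 6 of the 12 libraries of the series. Both groups were enterocyte cultures made from RPChiPS771, an induced pluripotent stem (iPS) cell line of human origin, and enterocytes are the absorptive cells of the intestinal lining. Both were kept in M3 medium from day 15 to day 23, with 1 µM VD3 in the VD3 group and without VD3 in Control, and each group had 3 libraries; the labels of these groups name no valproic acid (VPA). The other 6 libraries (VPA at 100 µM, and VD3VPA with both compounds) entered the model for its estimate of spread and are described only where the effect of VD3 was set beside its effect in the presence of VPA. The form of VD3 and the vehicle were not given in the sources used here. All groups came from the same cell line, so the cultures show the response of that line and not differences between people. The design text gives the purpose as finding how VPA and VD3 affect differentiation.

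Genes were members of the comparison if they reached 1 FPKM (fragments for each kilobase of transcript, scaled for depth) in at least 3 of the 12 libraries. This held for 12578 of 58735 genes, of which 10655 were protein-coding. At the edge of this rule, the 3rd highest value was 1.001 FPKM for ZNF426 and 1.002 for CFAP57, which were included, and 0.999 for PDE5A, which was not.

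Vitamin D acts through the vitamin D receptor VDR, a nuclear receptor that binds DNA together with a retinoid X receptor such as RXRA. In the small intestine the receptor is known for switching on the machinery of calcium absorption: the apical calcium channel TRPV6, the calcium-binding protein S100G and the basal calcium pump ATP2B1. It also induces CYP24A1, which inactivates the hormone, and in gut and liver the drug-oxidizing enzyme CYP3A4. In many dividing cell types vitamin D signalling is known to slow growth and lower the expression of MYC.

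Depth in the VD3 and Control libraries was 32160289 to 43998467 fragments, a number recovered from the deposited FPKM. The 3 VD3 libraries and the 3 Control libraries stood apart on the leading principal component, which held 86.0% of the variance among them. Every pair of replicates differed beyond sampling noise (chi-square per gene 7.86 to 22.5). The labels do not say whether replicate libraries were grown as separate cultures, and the spread behind each p-value may therefore be technical. In bulk RNA, fewer cells of a type and less RNA per cell cannot be told apart.

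The markers did not single out enterocytes. All 17 enterocyte markers were tested, and their summed level was 8469 to 10123 FPKM in Control and 22601 to 28246 FPKM with VD3. Of the 17, 8 were higher, 3 lower and 6 did not pass, and APOA1 alone went from 6918 to 18481 FPKM. The share that passed was 64.7%, against 62.5% of all genes tested. The gene with the most fragments was AFP, the fetal serum protein alpha-fetoprotein of liver and yolk sac. The summed level of 16 hepatocyte markers, most of it AFP, was 36801 to 38035 FPKM in Control and 32585 to 35775 FPKM with VD3. Sucrase-isomaltase (SI), a defining enzyme of mature enterocytes, was at 1.05 to 1.21 FPKM in Control. The mixed profile is a limit on reading any result below as a response of enterocytes, and its part in the results was not tested.

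Expression changed broadly with VD3. A total of 7863 of 12578 genes passed an adjusted p of 0.05 (limma with Benjamini-Hochberg adjustment), which is 62.5% of the genes tested. Of these, 3934 rose (31.3%) and 3929 fell (31.2%), while 4715 did not pass. Scaling libraries to their own totals moved the split to 3202 higher and 4725 lower, with the median of all genes at -0.06 on the log2 scale, so small changes are read relative to that shift. Group levels are mean FPKM ± SD (n = 3 in each group). Fold changes are log2 values with a standard error (SE), taken from log2(FPKM + 1), a scale that understates changes at low levels.

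Large changes were fewer, and their split depended on the scaling. In all, 65.9% of genes had no overlap between the VD3 and Control libraries, and 6.4% were called with a change of at least 2-fold. These were 473 genes that rose (3.76%) and 332 that fell (2.64%), and 425 and 411 with libraries scaled to their own totals. Between 2-fold and 4-fold the numbers were close, at 377 rises and 322 falls. Beyond 4-fold on the log2(FPKM + 1) scale there were 72 rises up to 8-fold, 13 up to 16-fold and 11 larger ones. On the same scale there were 10 falls up to 8-fold and none beyond. That scale shrinks falls that end near or below 1 FPKM, and in plain FPKM some falls were larger, as that of LINC01996 given below. At the extreme, 9 genes lay below 1 FPKM in every Control library and above 10 FPKM in every VD3 library: CP, CYP24A1, CYP2B7P, CYP3A4, PRODH2, S100G, SLC37A2, TRPV6 and VNN1. No gene made the opposite switch.

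**Figure D1:**
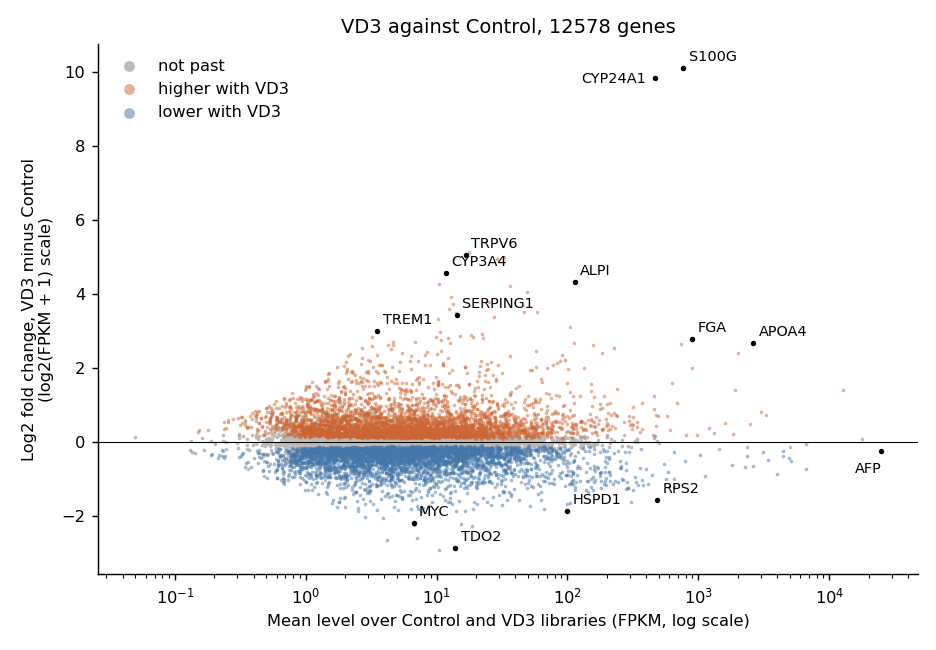
Log2 fold change of each gene (VD3 minus Control, log2(FPKM + 1) scale) against its mean level in the 6 libraries (FPKM, log axis) for 12578 genes. Grey points did not pass, orange points were higher and blue points lower with VD3. The rises of S100G and CYP24A1, near 10 on the log2 scale, stand far above all others, while the falls of TDO2 and MYC lie between -3 and -2.

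The receptor itself did not pass the test. VDR stood at 3.31, 2.97 and 3.37 FPKM in the Control libraries and at 2.81, 2.89 and 2.92 FPKM in the VD3 libraries. The VD3 values all lay below the Control values, but the log2 fold change of -0.12 (SE 0.11) had an adjusted p of 0.346 in limma. RXRA likewise did not pass, at 12.3 ± 0.221 FPKM in Control and 11.5 ± 0.770 with VD3, although it did pass without VD3 replicate 3. Among 15 tested genes of the receptor, its partners and its cofactors, 4 were higher, 3 lower and 8 did not pass, with 2 higher when Control replicate 1 was left out and 2 higher and 5 lower with libraries scaled to their own totals. In this list 46.7% were called, against 62.5% of all genes. The lower genes included the chromatin remodeller SMARCA4, from 7.38 ± 0.375 to 6.14 ± 0.0520 FPKM.

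CYP24A1, the enzyme of vitamin D breakdown, rose, while the uptake genes LRP2, CUBN and DAB2 fell. CYP24A1 (chromosome 20, 54153449 to 54173973, GRCh38) was at 0, 0 and 0.0059 FPKM in Control, against 857, 918 and 1008 FPKM with VD3. These Control values rest on 1 fragment in all 3 libraries, against 384289 fragments with VD3, so the ratio of 471834 has a 95% counting interval of 81827 to 18007651. CYP27B1, the enzyme that makes the active hormone, was too low to be tested, at 0.681, 0.485 and 0.511 FPKM in Control and 0.145, 0.319 and 0.388 FPKM with VD3, with no overlap between the groups. The endocytic receptor LRP2 (megalin), which takes up vitamin D bound to its carrier protein in the kidney, fell from 1.06 ± 0.311 to 0.267 ± 0.0594 FPKM. Its partner CUBN (cubilin) fell from 6.44 ± 0.453 to 4.35 ± 1.02 FPKM, and DAB2, an adaptor that brings such receptors into clathrin-coated pits, from 17.9 ± 0.658 to 7.46 ± 0.426 FPKM. The adjusted p in limma was 0.00207 for LRP2, 0.00262 for CUBN and 1.38e-08 for DAB2. In all, 3 of 9 tested genes of vitamin D metabolism and uptake were higher, 4 lower and 2 did not pass. Their median log2 fold change was -0.03, and over all genes 31.3% were higher and 31.2% lower.

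The channel, the carrier and the pump of calcium absorption all rose. S100G, which ferries calcium across the enterocyte, was at 0.587, 0.186 and 0.412 FPKM in Control, against 1424, 1448 and 1734 FPKM with VD3 (log2 fold change 10.11, SE 0.60, adjusted p 9.13e-08 in limma). TRPV6, through which calcium enters, was at 0.0348, 0.0425 and 0.0354 FPKM in Control, against 33.5, 33.3 and 33.0 FPKM with VD3 (5.05, SE 0.10). ATP2B1, the pump through which calcium leaves, was at 23.7, 24.4 and 26.4 FPKM in Control, against 43.7, 44.6 and 47.0 FPKM with VD3 (0.84, SE 0.05). The groups did not overlap for any of these genes, and the channel and the carrier started near 0 while the pump was already present without VD3.

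Other calcium genes moved as well. CALB1, a larger calcium-binding protein best known from kidney and brain, rose from 0.0568 ± 0.00981 to 2.07 ± 0.829 FPKM, and the calcium-sensing receptor CASR from 0.0103 ± 0.00518 to 0.635 ± 0.144 FPKM. Both stayed far below S100G. A second plasma membrane pump, ATP2B4, rose from 5.89 ± 0.628 to 8.77 ± 0.880 FPKM, and STIM1, the sensor of calcium stores, from 10.05 ± 0.408 to 16.6 ± 0.213 FPKM. STC1 (stanniocalcin, a hormone that lowers calcium in fish) fell from 22.6 ± 2.66 to 5.50 ± 1.19 FPKM. Of 15 tested genes of calcium absorption and calcium pumps 9 were higher, 2 lower and 4 did not pass, with a median log2 fold change of 0.25 against 0.00 over all genes. The lower ones were STC1 and CACNA1D, and CACNA1D lost its call without Control replicate 1, Control replicate 2 or VD3 replicate 2.

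The phosphate carriers SLC34A3 and SLC20A1 rose, but phosphate and magnesium genes as a list were called no more often than genes at large. SLC34A3 is a sodium-phosphate cotransporter best known from the kidney. It was at 4.29, 4.52 and 4.21 FPKM in Control, against 12.2, 9.89 and 9.58 FPKM with VD3. Its log2 fold change was 1.11 (SE 0.08, adjusted p 3.93e-07 in limma). SLC20A1, a widely expressed phosphate carrier, rose from 10.8 ± 1.40 to 20.1 ± 2.12 FPKM. The intestinal cotransporter SLC34A2 was too low to be tested, at 0.0232 ± 0.0131 FPKM in Control and 0.0952 ± 0.0408 with VD3. Of 16 tested phosphate and magnesium genes 7 were higher, 3 lower and 6 did not pass, with 5 lower when libraries were scaled to their own totals. The share called was 62.5%, the same as over all genes, and the median log2 fold change was 0.08 against 0.00 over all genes.

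**Figure D2:**
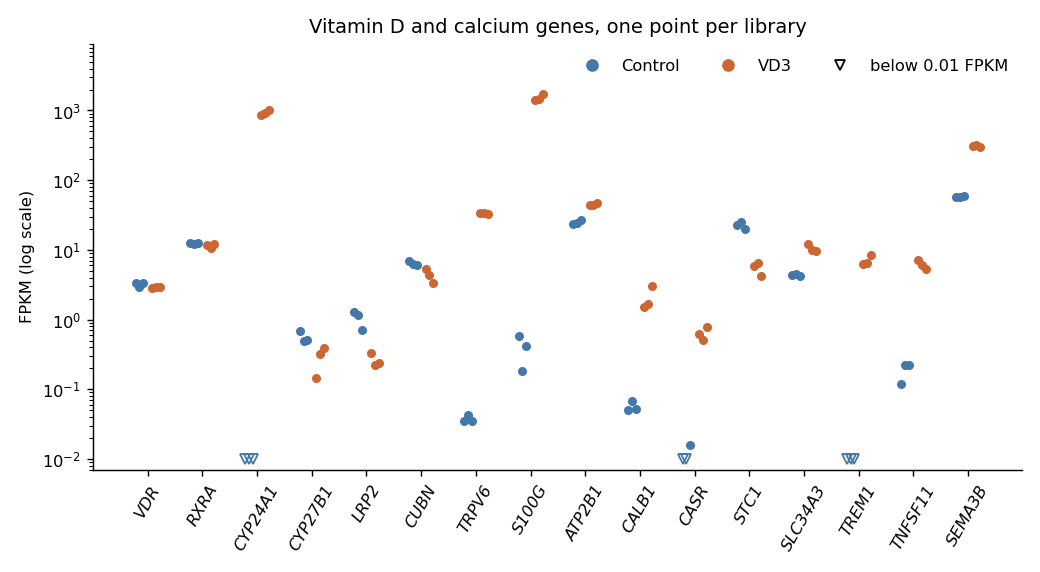
FPKM (log axis) of vitamin D, calcium and phosphate genes and of known vitamin D targets of other tissues, with 1 point for each of the 3 Control (blue) and 3 VD3 (orange) libraries; open triangles are libraries below 0.01 FPKM. CYP24A1, TRPV6, S100G and TREM1 went from near 0 to clearly measured levels, while VDR and RXRA lay at about the same level in both groups.

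Targets known from other tissues also responded. TREM1, a receptor of innate immune cells (chromosome 6, 41267926 to 41286719), had 0 fragments in all Control libraries and stood at 6.19, 6.49 and 8.52 FPKM with VD3. Against a floor of 3 fragments over the Control group it was at least 1257-fold higher. TNFSF11, the RANKL ligand that bone-forming cells use to call up bone-resorbing cells (chromosome 13, 42562736 to 42608013), was at 0.119, 0.224 and 0.223 FPKM in Control, against 7.17, 6.07 and 5.39 FPKM with VD3. Its decoy receptor TNFRSF11B (osteoprotegerin) moved the other way, from 20.4 ± 4.02 to 5.78 ± 1.81 FPKM.

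SEMA3B, a secreted guidance factor, was at 57.2, 57.8 and 59.1 FPKM in Control, against 312, 325 and 301 FPKM with VD3 (log2 fold change 2.41, SE 0.04, adjusted p 1.87e-11 in limma). The transcription factor CEBPB rose from 9.64 ± 0.436 to 24.0 ± 1.42 FPKM. Of 40 genes listed as vitamin D targets of other tissues 24 were tested, 15 of them higher, 5 lower and 4 not past, with a median of 0.27, and the 5 lower fell to 2 without Control replicate 1 or VD3 replicate 2. Their share of higher genes was above the 31.3% of all genes, but the genes of the list were picked as known responders. The antimicrobial peptide gene CAMP, a strong target in human white blood cells, had 0 fragments in all 6 libraries, and CD14 had 6 fragments in Control and 11 with VD3.

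The CYP3A genes, which encode drug-oxidizing enzymes, rose steeply. CYP3A4 (chromosome 7, 99756960 to 99784265) was at 0.0472, 0.0202 and 0.0149 FPKM in Control, against 22.9, 22.3 and 25.5 FPKM with VD3. It had 10 fragments in Control and 7693 with VD3, and its ratio of 858 (95% counting interval 496 to 1904) was 1343 without Control replicate 1. CYP3A5 (chromosome 7, 99648194 to 99680026) started higher, at 6.80, 6.49 and 6.50 FPKM, and reached 83.6, 83.8 and 91.9 FPKM (log2 fold change 3.52, SE 0.07, adjusted p 2.09e-11 in limma). The fetal form CYP3A7 remained near 0, at 4 and 19 fragments. These genes are similar in sequence, so fragments shared between them leave their exact levels uncertain.

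The promoters of both genes carry the same arrangement of nuclear receptor half-sites, and those of CYP3A4, CYP3A5 and S100G are shown because these genes stand among the largest rises. Sequences are from RefSeq (GRCh38.p14), 300 bases from 250 before to 50 after the start, 5′ to 3′ along the gene. CYP3A4 is chr7:99784135-99784434 and CYP3A5 is chr7:99679947-99680246, both on the minus strand, and S100G is chrX:16649908-16650207 on the plus strand. Capitals mark every match, on either strand, to the half-site: A or G, then G, then G or T, then T, then C or G, then A.
CYP3A4: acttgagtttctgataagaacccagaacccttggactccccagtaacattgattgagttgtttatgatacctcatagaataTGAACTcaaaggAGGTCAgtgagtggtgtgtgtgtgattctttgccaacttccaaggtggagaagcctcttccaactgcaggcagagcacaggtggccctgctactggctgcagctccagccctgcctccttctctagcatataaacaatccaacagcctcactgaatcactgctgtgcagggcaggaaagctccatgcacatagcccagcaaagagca
CYP3A5: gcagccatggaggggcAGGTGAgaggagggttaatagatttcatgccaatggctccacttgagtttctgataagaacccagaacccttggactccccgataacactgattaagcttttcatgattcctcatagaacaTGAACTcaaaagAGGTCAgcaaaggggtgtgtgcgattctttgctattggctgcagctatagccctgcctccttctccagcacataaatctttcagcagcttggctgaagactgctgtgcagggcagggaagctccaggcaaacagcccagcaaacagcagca
S100G: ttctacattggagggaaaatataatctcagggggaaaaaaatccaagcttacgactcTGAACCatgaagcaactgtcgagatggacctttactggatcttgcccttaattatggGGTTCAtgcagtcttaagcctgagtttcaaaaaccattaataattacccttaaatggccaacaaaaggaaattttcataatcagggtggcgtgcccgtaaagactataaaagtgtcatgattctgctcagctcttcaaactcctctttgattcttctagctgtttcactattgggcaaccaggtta

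In CYP3A4 the half-site TGAACT begins 169 bases before the start and is followed, 157 bases before it, by the half-site AGGTCA. In CYP3A5 the same pair begins 113 and 101 bases before the start. In both genes the pair points outwards with 6 bases between (an everted repeat), an arrangement known to bind nuclear receptor pairs with RXR. Among 8734 tested genes with a promoter in the table, 6 had an everted repeat of these half-sites with this spacing (0.0687%), against 0.0911% of all 35116 promoters. Besides the CYP3A genes they were KLF5 and BAZ2A, which rose, CUBN, which fell, and MCMBP, which did not pass. This spacing was searched for after the CYP3A4 values were known.

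A direct repeat of the half-sites with 3 bases between, the classical vitamin D element, was present in 0.251% of all promoters. Among tested genes with a promoter the share was 0.172%, and among those that did not pass it was 0.0983%. The repeat was found in 1 of 284 promoters of genes at least 2-fold higher (CEACAM6, log2 fold change 2.54) and in 0 of 200 promoters of genes at least 2-fold lower. These were the genes with a promoter sequence at hand, out of 473 higher and 332 lower. CYP24A1, LCT and CP had none at hand, so their promoters were not searched. At least 1 half-site occurred in 62.1% of all promoters and in 55.3% of those of the tested genes. The share was 55.5% for genes that did not pass, 62.0% for genes at least 2-fold higher and 57.5% for genes at least 2-fold lower, and these shares were not tested. S100G has 2 lone half-sites, and TRPV6 (chr7:142885696-142885995, minus strand) has none. A match is a description of the letters, and no match says only that these letters are not in this window.

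Beyond these, the largest rises covered the brush border and several transporters. Among 21 tested brush border hydrolases 11 were higher, 7 lower and 3 did not pass, and the gains were uneven. Over all genes 31.3% were higher and 31.2% lower. ALPI, intestinal alkaline phosphatase, was at 9.97, 9.49 and 10.2 FPKM in Control, against 218, 206 and 231 FPKM with VD3. Lactase (LCT) was at 4.74, 5.17 and 4.02 FPKM in Control, against 89.5, 95.1 and 95.2 FPKM with VD3, and the phospholipase PLB1 rose from 4.55 ± 1.03 to 40.3 ± 1.499 FPKM. SI went the other way, from 1.145 ± 0.0840 to 0.231 ± 0.0830 FPKM.

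The sugar-phosphate exchanger SLC37A2 (chromosome 11, 125063067 to 125090312) was at 0.652, 0.696 and 0.721 FPKM in Control, against 21.5, 23.4 and 30.04 FPKM with VD3. CPM, a carboxypeptidase held on the cell surface, was at 1.00, 1.14 and 0.958 FPKM in Control, against 25.6, 26.5 and 25.5 FPKM with VD3. Its log2 fold change of 3.72 (SE 0.05) had an adjusted p of 1.52e-12 in limma, among the smallest of all genes. The manganese exporter SLC30A10 rose from 3.97 ± 0.384 to 50.8 ± 3.30 FPKM, and ANXA13, an annexin of the intestinal epithelium, from 8.33 ± 1.54 to 109 ± 32.2 FPKM. VNN1, which releases pantothenic acid from pantetheine, rose from 0.338 ± 0.133 to 12.9 ± 2.40 FPKM, and INMT, a methyltransferase of small amines, from 1.5004 ± 0.431 to 26.7 ± 2.30 FPKM. CP, which encodes ceruloplasmin, rose from 0.0323 ± 0.00806 to 35.3 ± 2.46 FPKM, and 19.4% of its exons overlap the neighbouring gene HPS3, so part of its fragments may be shared.

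Genes of the ribosome fell almost without exception. Of 81 tested cytosolic ribosomal protein genes 80 fell and none rose, where 31.2% of all genes fell. RPL39L was the exception, at 2.29 FPKM in Control and 2.17 FPKM with VD3. The median log2 fold change of the 81 genes was -0.90, against 0.00 over all genes, and 31 fell at least 2-fold. Their summed level was 20415 ± 2197 FPKM in Control (6.25% of all FPKM) and 10546 ± 363 FPKM with VD3 (3.14%). The count of 80 was the same under each other scaling tried (equal FPKM sums, own totals and quantiles). Ribosomal protein genes have many near-identical processed copies, so the split between them and their copies is uncertain.

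RPS2, a protein of the small subunit, was at 806, 635 and 725 FPKM in Control, against 235, 236 and 261 FPKM with VD3 (log2 fold change -1.56, SE 0.08, adjusted p 1.88e-08 in limma). RPL10A, of the large subunit, was at 439, 367 and 409.9 FPKM in Control, against 164, 169 and 178 FPKM with VD3. RPL22L1 (chromosome 3, 170864875 to 170870483), a paralog of RPL22, fell furthest of the list, from 31.3, 21.7 and 25.2 FPKM to 4.69, 4.52 and 5.14 FPKM. In each of these genes Control replicate 1 was the highest library and no VD3 library reached the lowest Control value.

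Genes that assemble ribosomes fell with them. Of 65 tested ribosome biogenesis genes 63 fell, IMP3 did not pass and MPHOSPH10 rose, from 5.54 ± 0.516 to 9.52 ± 0.432 FPKM. Their median log2 fold change was -0.70. NPM1 (nucleophosmin, chromosome 5, 171387116 to 171411137) was at 177, 138 and 159 FPKM in Control, against 47.7, 50.03 and 50.9 FPKM with VD3. The rRNA methylase FBL (fibrillarin) fell from 29.7 ± 4.29 to 9.04 ± 0.864 FPKM, and the nucleolar protein NOLC1 from 29.3 to 11.7 FPKM. The summed level of the 67 listed genes was 978 ± 108 FPKM in Control and 511 ± 7.205 FPKM with VD3.

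The steps that use ribosomes showed the same direction. Of 29 tested translation factors 23 fell, 3 rose and 3 did not pass, with a median of -0.48, and 5 rose when Control replicate 1 was left out. EEF1A1, which delivers aminoacyl-tRNA to the ribosome, was at 1518, 1369 and 1497 FPKM in Control, against 733, 783 and 825 FPKM with VD3. EIF4EBP2, a repressor of cap-dependent initiation, was among those that rose, from 20.04 ± 1.11 to 35.8 ± 1.07 FPKM. Of 20 aminoacyl-tRNA synthetases, which load amino acids onto tRNA, 17 fell and none rose, and AARS, CARS and EPRS did not pass. VARS, the valine enzyme, fell from 20.2 ± 1.99 to 7.50 ± 0.549 FPKM.

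**Figure D3:**
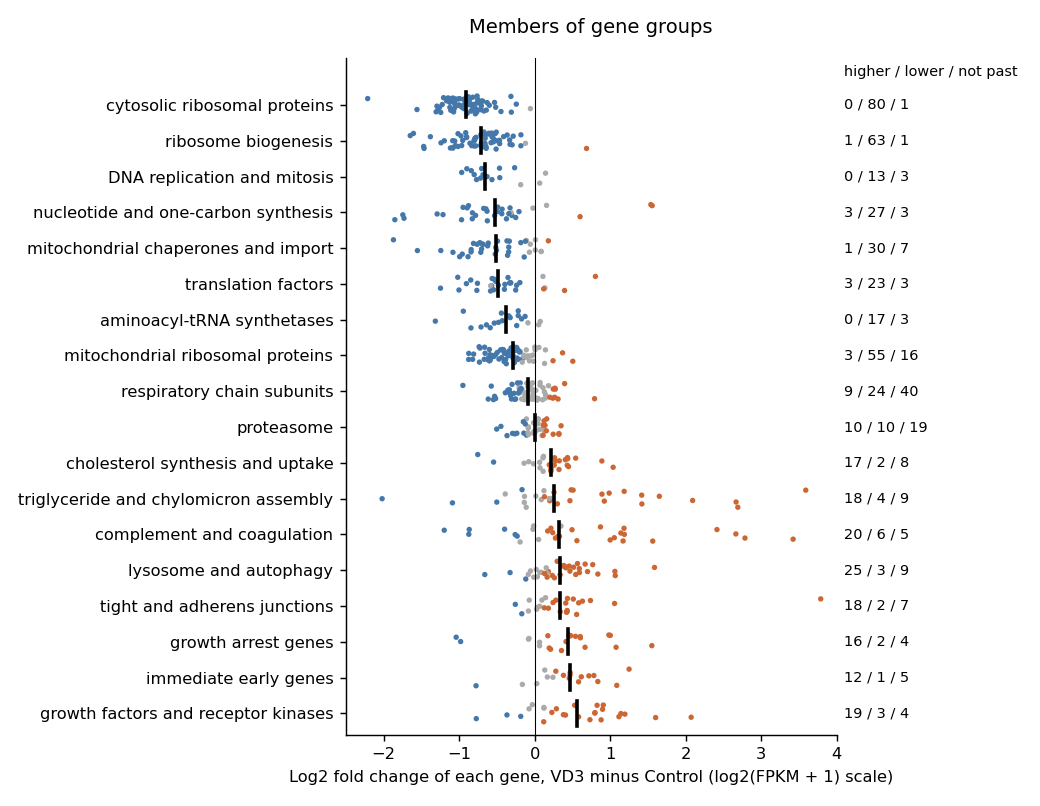
Log2 fold change (VD3 minus Control, log2(FPKM + 1) scale) of each tested member of 18 gene groups; orange points were higher, blue points lower and grey points did not pass, black bars mark each group's median, and the counts stand at the right. Ribosomal proteins and ribosome biogenesis genes lie almost wholly to the left of 0, while growth factor, growth arrest and lysosome genes lie mostly to the right.

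MYC, a growth-promoting factor known for switching on ribosome and nucleotide genes (chromosome 8, 127735434 to 127741434), was at 12.96, 10.6 and 11.1 FPKM in Control, against 2.35, 1.95 and 1.10 FPKM with VD3. The groups did not overlap, and the log2 fold change was -2.19 (SE 0.17, adjusted p 5.8e-07 in limma). Its relative MYCN fell from 3.65 ± 0.571 to 1.07 ± 0.188 FPKM. MXD1, which competes with MYC for its partner MAX, rose from 11.9 ± 1.14 to 19.4 ± 1.05 FPKM. Of 12 tested genes of this network 4 rose, 5 fell and 3 did not pass, where 31.3% of all genes rose and 31.2% fell.

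Building blocks of nucleic acids were affected too. Of 33 tested genes of nucleotide and one-carbon synthesis 27 fell, 3 rose and 3 did not pass, with a median of -0.53. PAICS, of purine synthesis, fell from 12.7 ± 1.81 to 2.77 ± 0.121 FPKM, and IMPDH2, which commits purines to guanine nucleotides, from 79.7 ± 11.3 to 23.2 ± 1.58 FPKM. The CTP synthases were exceptions: CTPS1 was at 7.78, 7.30 and 5.80 FPKM in Control, against 21.4, 21.6 and 23.1 FPKM with VD3, and CTPS2 rose from 4.67 ± 0.184 to 15.7 ± 0.313 FPKM. SRM, which makes the polyamine spermidine, fell from 31.8 ± 6.01 to 9.22 ± 0.209 FPKM. Of 16 tested genes of DNA replication and mitosis 13 fell and none rose, although 1 rose when Control replicate 1 was left out, and PCNA, the replication clamp, fell from 10.3 to 5.01 FPKM.

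In mitochondria the changes were strongest for protein folding and import. Of 38 tested mitochondrial chaperone and import genes 30 fell, 1 rose and 7 did not pass, with 2 rises without VD3 replicate 1 and none with libraries scaled to their own totals, and the median was -0.52. HSPD1, the chaperonin of the mitochondrial matrix, was at 175, 141 and 154 FPKM in Control, against 41.1, 41.4 and 43.5 FPKM with VD3. C1QBP, a matrix protein needed for mitochondrial translation, fell from 52.0 ± 8.46 to 17.0 ± 1.595 FPKM. Of 74 tested mitochondrial ribosomal proteins 55 fell, 3 rose and 16 did not pass, with a median of -0.29 and 5 rises without Control replicate 1. Nuclear genes of the respiratory chain were less uniform, with 24 lower, 9 higher (15 without Control replicate 1) and 40 not past of 73. Only 45.2% of them were called, below the 62.5% of all genes, and their median was -0.09. COX5A rose from 62.2 ± 4.25 to 109 ± 3.96 FPKM.

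RNA of the mitochondrial genome took a smaller share. Its genes made up 19.8% ± 0.371 of all FPKM in Control and 15.0% ± 0.389 with VD3. Their share of fragments, which are not scaled by gene length, was lower. It was 5.454% to 5.664% in the Control libraries and 3.999% to 4.253% in the VD3 libraries. Of 36 tested genes 12 fell, 7 rose and 17 did not pass, where 31.2% of all genes fell. MT-CO1, a subunit of the respiratory chain's last complex, was at 8341, 7977 and 8485 FPKM in Control, against 4953, 4998 and 5121 FPKM with VD3. The large ribosomal RNA MT-RNR2 moved the other way, from 2181 ± 9.65 to 3872 ± 158 FPKM, and poly-A selection limits what its level means. The library share of mitochondrial fragments is also used as a sign of RNA quality, and the part of quality in these values was not tested.

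**Figure D4:**
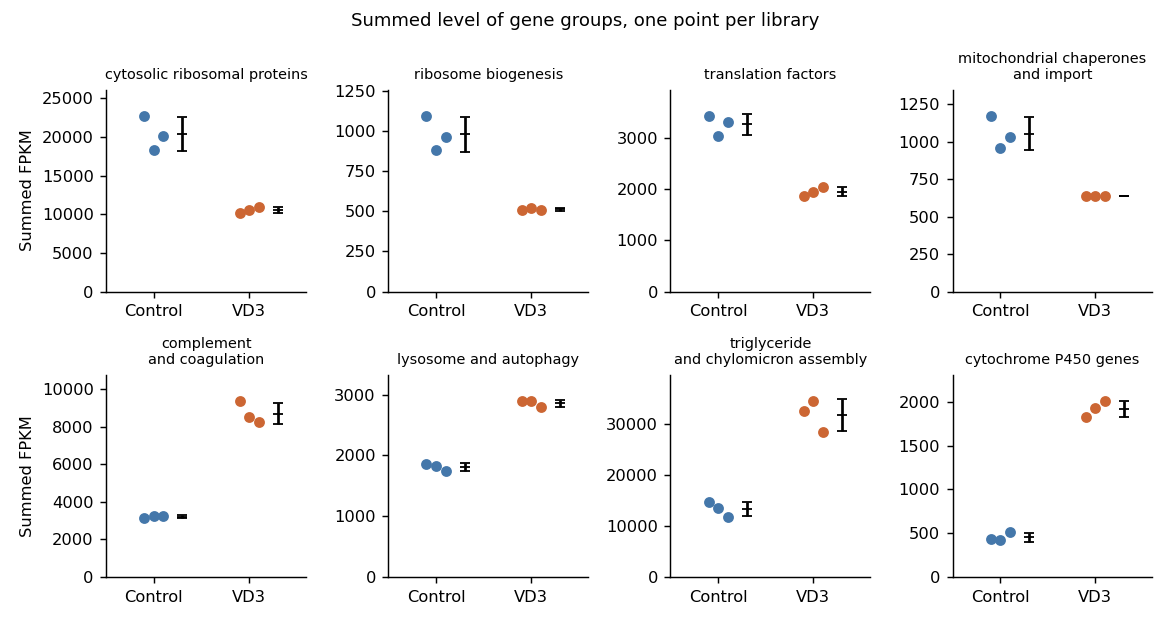
Summed FPKM of the members of 8 gene groups in each Control (blue) and VD3 (orange) library, with axes starting at 0; black marks are the mean ± SD of 3 libraries. The 4 upper groups were lower in every VD3 library than in every Control library, and the 4 lower groups were higher in every VD3 library.

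Genes of breakdown and recycling rose. Of 37 tested lysosome and autophagy genes 25 were higher, 3 lower and 9 did not pass, with a median of 0.34. The protease CTSB (cathepsin B, chromosome 8, 11842524 to 11869448) was at 311, 335 and 298 FPKM in Control, against 971, 955 and 915 FPKM with VD3 (log2 fold change 1.59, SE 0.05, adjusted p 1.23e-09 in limma). CTSD rose from 72.9 ± 4.01 to 153 ± 2.01 FPKM, GABARAPL1, which coats autophagosomes, from 18.4 ± 0.792 to 39.6 ± 1.71 FPKM, and the kinase ULK1, which starts autophagy, from 4.22 ± 0.203 to 8.33 ± 0.370 FPKM. The lysosomal enzyme GLA fell, from 122 to 76.4 FPKM.

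Growth control genes showed more rises than falls. Of 22 tested growth arrest genes 16 rose, 2 fell and 4 did not pass, with a median of 0.44. TP53INP1, a stress-induced partner of p53, was at 4.22, 5.15 and 4.81 FPKM in Control, against 16.7, 15.0 and 15.7 FPKM with VD3, and the cell cycle inhibitor CDKN2B rose from 13.9 ± 2.64 to 30.3 ± 2.98 FPKM. The 2 that fell were the cyclins CCNG1, from 39.5 ± 2.55 to 19.5 ± 0.437 FPKM, and CCNG2, from 42.5 ± 4.52 to 20.1 ± 1.595 FPKM.

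Of 26 tested growth factors and receptor kinases 19 rose, 3 fell and 4 did not pass, with a median of 0.56. KLB, the co-receptor for the gut hormone FGF19, was at 3.63, 4.20 and 3.32 FPKM in Control, against 18.3, 18.4 and 19.8 FPKM with VD3. The insulin signalling adaptor IRS2 rose from 1.85 ± 0.296 to 7.65 ± 0.584 FPKM, while IRS1 fell, from 12.6 to 6.99 FPKM. MET, the receptor for hepatocyte growth factor, rose from 9.54 ± 0.781 to 22.2 ± 0.696 FPKM. Of 18 tested immediate early genes, which respond quickly to growth signals, 12 rose, 1 fell (2 without Control replicate 2) and 5 did not pass. DUSP5, a phosphatase that restrains ERK kinases, rose from 64.6 ± 6.87 to 155 ± 7.73 FPKM.

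Genes of complement and coagulation took 0.986% ± 0.0490 of all FPKM in Control and 2.59% ± 0.192 with VD3. Their summed level was 3213 ± 62.0 FPKM in Control and 8708 ± 581 with VD3, and the fibrinogen chains given below held most of the gain. Of 31 tested complement and coagulation genes 20 rose (11 of them at least 2-fold), 6 fell and 5 did not pass. SERPING1, the C1 inhibitor (chromosome 11, 57597387 to 57614853), was at 1.499, 1.68 and 1.59 FPKM in Control, against 28.5, 28.3 and 23.8 FPKM with VD3. The fibrinogen chains moved together: FGA was at 203, 235 and 241 FPKM in Control, against 1761, 1449 and 1495 FPKM with VD3, FGB rose from 633 ± 76.6 to 3371 ± 194 FPKM, and FGG from 201 ± 17.7 to 1283 ± 80.3 FPKM. The heparin cofactor SERPIND1 fell, from 28.1 to 11.8 FPKM, and tissue factor F3 from 93.3 to 50.7 FPKM.

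Liver-type genes did not move as a block. Of 13 tested hepatocyte markers 6 rose, 3 fell and 4 did not pass, so that 69.2% were called, against 62.5% of all genes. The summed level of all 16 listed was 37582 ± 679 FPKM in Control and 33946 ± 1645 with VD3. AFP made up most of this sum, at 8.27% of all FPKM in Control and 6.83% with VD3, against 11.5% and 10.1% for all 16. AMBP, a plasma protein precursor, rose from 53.6 ± 12.9 to 215 ± 42.0 FPKM, and CPS1, of the urea cycle, fell from 69.2 ± 9.83 to 28.4 ± 2.59 FPKM. AFP was at 27323, 26514 and 27021 FPKM in Control, against 22461, 22311 and 24020.2 FPKM with VD3. Its adjusted p of 0.0204 in limma was lost when Control replicate 1, Control replicate 3, VD3 replicate 1 or VD3 replicate 2 was left out, with a highest value of 0.068. Albumin (ALB) did not pass, at 1500 ± 70.4 and 1354 ± 313 FPKM. The part of liver-like cells in the rises of plasma protein genes was not tested.

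Lipid genes rose in part. Of 31 tested genes of triglyceride and chylomicron assembly 18 rose, 4 fell and 9 did not pass, with a median of 0.26. Calls covered 71.0% of them, against 62.5% of all genes. APOA4, an apolipoprotein of chylomicrons, was at 798, 872 and 488 FPKM in Control, against 4797, 5470 and 3348 FPKM with VD3, and APOA1 rose from 6918 ± 747 to 18481 ± 1722 FPKM. In both genes replicate 3 was the lowest library of its group. The intestinal fatty acid-binding protein FABP2 rose from 2.64 ± 0.545 to 22.6 ± 3.88 FPKM. FABP5, the epidermal form, fell from 5.20 ± 1.62 to 0.498 ± 0.0787 FPKM, and the lipid droplet protein PLIN2 from 11.9 ± 1.49 to 5.10 ± 0.943 FPKM. APOB, the scaffold of chylomicrons, did not pass (adjusted p 0.0566 in limma), although it did without Control replicate 2 or without VD3 replicate 3.

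Bile acid genes moved in both directions, and cholesterol genes rose more often than they fell. FABP6, the bile acid-binding protein of the ileum, was at 0.739, 0.653 and 1.85 FPKM in Control, against 17.5, 22.98 and 31.5 FPKM with VD3, a ratio of 22.2 that became 34.4 without Control replicate 3. The bile acid importer SLC10A1, best known from liver, rose from 16.7 ± 2.71 to 98.8 ± 25.8 FPKM, and SLC51B, part of the basal exporter, from 29.6 ± 2.39 to 71.1 ± 6.81 FPKM. BAAT, which joins bile acids to amino acids, fell from 3.12 ± 0.615 to 0.738 ± 0.186 FPKM. Of 14 tested bile acid genes 7 rose, 5 fell (3 without Control replicate 3) and 2 did not pass, where 31.3% of all genes rose and 31.2% fell. Of 27 tested genes of cholesterol synthesis and uptake 17 rose, 2 fell and 8 did not pass, and NPC1L1, through which enterocytes take up cholesterol, rose from 23.7 ± 1.73 to 49.9 ± 4.64 FPKM.

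Secreted mucosal factors fell more often than they rose, in a short list. Of 10 tested mucins, trefoil and goblet factors 5 fell at least 2-fold, 3 rose and 2 did not pass. AGR2, a protein-folding enzyme needed for mucin, was at 129, 119.9 and 211 FPKM in Control, against 41.0, 44.7 and 51.6 FPKM with VD3, and the trefoil factor TFF3 fell from 44.0 ± 1.92 to 15.6 ± 1.47 FPKM. ZG16, a lectin of goblet cell granules, rose from 30.5 ± 1.31 to 97.4 ± 20.7 FPKM. Of 27 glycosyltransferases of mucosal glycans 17 rose, 7 fell and 3 did not pass. B4GALNT2, which makes the Sda blood group antigen, rose from 0.479 ± 0.0553 to 8.78 ± 0.999 FPKM, and GCNT3, which branches mucin sugars, from 7.24 ± 1.53 to 36.7 ± 2.44 FPKM. Many markers of other gut lineages lay below the filter. Those tested were 3 of 12 goblet and Paneth, 6 of 12 colonocyte, 2 of 16 enteroendocrine and 2 of 10 tuft and microfold cell markers. In sum, goblet and Paneth cell markers were at 76.1 ± 2.55 FPKM in Control and 117 ± 20.3 with VD3, and colonocyte markers at 74.96 ± 5.27 and 185 ± 8.21 FPKM. The gain of the goblet and Paneth sum lay in ZG16, while TFF3 of the same list fell. Most of the colonocyte gain lay in CA2, given below. Enteroendocrine markers were at 5.64 ± 0.985 and 3.24 ± 1.19 FPKM, and tuft and microfold cell markers at 3.84 ± 0.379 and 2.64 ± 0.194 FPKM. Both sums are low, and the enteroendocrine sums overlapped between the groups (4.51 to 6.23 FPKM in Control and 2.43 to 4.61 with VD3). The part of such cells in these results was not tested.

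Genes of cell contacts rose more often than they fell. Among tight and adherens junction genes, 27 were tested, of which 18 rose, 2 fell (4 with libraries scaled to their own totals) and 7 did not pass, with a median of 0.34. CLDN2, a claudin of leaky epithelia, was at 2.37, 2.01 and 3.35 FPKM in Control, against 47.1, 44.8 and 51.9 FPKM with VD3, and CDH17, the intestinal cadherin, rose from 137 ± 23.3 to 287 ± 38.5 FPKM. The carbonic anhydrases CA2 and CA3 rose from 30.1 ± 3.67 to 135 ± 1.58 FPKM and from 29.6 ± 3.29 to 194 ± 32.4 FPKM.

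Conjugating enzymes split within their families. Of 19 tested UDP glucuronosyltransferases and sulfotransferases 7 rose, 10 fell and 2 did not pass, with a median of -0.39. In this list 89.5% were called, against 62.5% of all genes. UGT2B11 was at 36.3, 44.2 and 49.7 FPKM in Control, against 263, 250.2 and 298 FPKM with VD3, whereas UGT2B7 fell from 90.0 ± 1.04 to 34.8 ± 0.922 FPKM. UGT1A1, which conjugates bilirubin, rose from 3.80 ± 0.0284 to 34.2 ± 6.93 FPKM. The members share sequence or exons, so their levels are uncertain. SULT1C2 rose from 5.91 ± 0.325 to 18.6 ± 1.23 FPKM and SULT1B1 fell from 22.9 ± 3.64 to 6.94 ± 0.243 FPKM.

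Iron and redox genes moved in both directions, as did genes at large, of which 31.3% were higher and 31.2% lower. Of 14 tested iron genes 6 rose, 3 fell (5 with libraries scaled to their own totals) and 5 did not pass, and of 32 antioxidant and thiol enzymes 13 rose, 10 fell and 9 did not pass, with a median of 0.01. FTH1, the ferritin heavy chain, was at 379, 334 and 360.3 FPKM in Control, against 1257, 1458 and 1613 FPKM with VD3, while the light chain FTL did not pass, at 17278 ± 715 and 18462 ± 1050 FPKM. The ferroxidase HEPH rose from 127 ± 11.2 to 203 ± 8.27 FPKM. Ferroportin (SLC40A1), which exports iron, fell from 32.2 ± 2.22 to 14.8 ± 0.680 FPKM. TKT, an enzyme of the pentose phosphate pathway, fell from 42.8 ± 2.96 to 20.5 ± 1.97 FPKM.

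The largest falls outside these groups concerned enzymes and signalling peptides. TDO2, which starts tryptophan breakdown (chromosome 4, 155854738 to 155920406), was at 27.3, 23.3 and 25.1 FPKM in Control, against 2.96, 2.02 and 2.92 FPKM with VD3 (log2 fold change -2.86, SE 0.12, adjusted p 7.83e-09 in limma). The aldo-keto reductase AKR1B10 fell from 31.6 ± 6.83 to 5.77 ± 1.08 FPKM and NPW, a neuropeptide, from 12.8 ± 5.03 to 1.26 ± 0.548 FPKM. ALDH1A1, which makes retinoic acid, was at 31.0, 28.3 and 31.5 FPKM in Control, against 8.39, 7.36 and 7.87 FPKM with VD3. The signalling protein WNT5A fell from 11.4 ± 0.657 to 2.75 ± 0.124 FPKM, together with its antisense transcript WNT5A-AS1, and without a stated strand setting the fragments of an antisense pair cannot be told apart.

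Among 708 tested transcription factors of the deposited annotation 215 were higher, 210 lower and 283 did not pass, close to the share of all genes. The families and factors named here were chosen after their values were seen. The bZIP family had 21 of 36 members higher and 5 lower, and the homeobox family 5 of 29 higher and 15 lower. SALL1, a zinc finger factor of organ development, rose from 0.581 ± 0.129 to 3.95 ± 0.444 FPKM, and IRF8, best known from immune cells, from 0.213 ± 0.0546 to 2.31 ± 0.517 FPKM. FOXQ1 fell from 6.08 ± 0.678 to 1.44 ± 0.183 FPKM and the homeobox factor HOXC8 from 3.39 ± 0.658 to 0.566 ± 0.164 FPKM. LIN28B, an RNA-binding protein and pluripotent cell marker, fell from 1.996 ± 0.454 to 0.222 ± 0.0215 FPKM.

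Finally, the effect of VD3 was set beside its effect in the presence of VPA, the comparison of VD3VPA with VPA, which shares no library with VD3 and Control. That comparison called 7958 genes (63.3% of those tested), 3596 higher (28.6%) and 4362 lower (34.7%). Of the 7863 genes called with VD3 alone, 4908 were called in the same direction with VPA, 743 in the opposite direction and 2212 did not pass. These 4908 were 62.4% of the first set and 61.7% of the second. Of changes of at least 2-fold, 432 of the 473 rises and 277 of the 332 falls were called in the same direction (91.3% and 83.4%).

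The difference itself, tested as the interaction in limma, passed for 5572 genes (44.3% of those tested). Among the 30 largest rises with VD3 alone all 30 were also called higher with VPA, and the difference passed for 16. Among the 30 largest falls 23 were called lower with VPA and the difference passed for 25, in 20 of which the change was smaller with VPA. The genes were picked for a large change in the same VD3 and Control libraries that enter the difference, which by itself favours smaller changes with VPA, so these counts are a description. NPW fell by 2.58 on the log2 scale with VD3 alone and had a log2 fold change of -0.15 with VPA. CTSB, which rose by 1.59, fell by 0.36 with VPA (interaction adjusted p 1.24e-07).

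**Figure D5:**
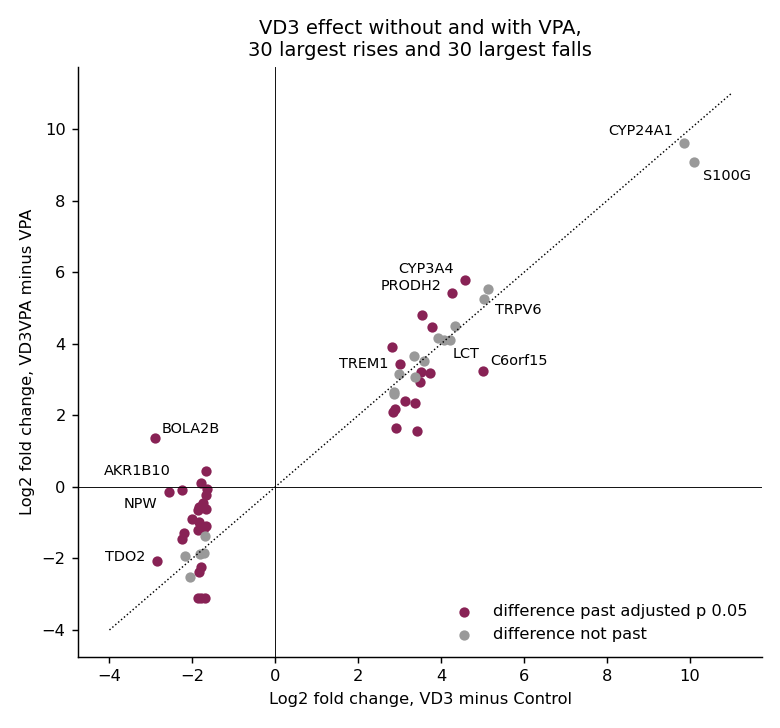
Log2 fold change with VD3VPA against VPA (vertical) and with VD3 against Control (horizontal) for the 30 largest rises and 30 largest falls with VD3 alone, on the log2(FPKM + 1) scale; the dotted line marks equal change, and purple points are genes whose difference passed an adjusted p of 0.05. All 30 rises lie above 0 on both axes, with C6orf15 below the line, while several falls, among them NPW and AKR1B10, lie near 0 with VPA.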

How the data were processed

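RNA sequencing libraries were poly-A selected and made from 1 µg of RNA, per the labels' protocols. The deposited table holds FPKM per gene and library, made by the authors, with gene lengths, per the file headers. Per the submitters' processing notes the build was GRCh38.p13. These notes also list DESeq2 1.20.0, featureCounts 1.5.0-p3 and HISAT2 2.0.5 without a role or order, and the strand setting is not given in the sources used here. All 58735 gene identifiers matched GENCODE release 29, and symbols are as deposited. Multiplying FPKM by gene length and a library constant gave whole fragments for 100% of values (within 0.01), and the deposited scaling equals median-of-ratios size factors. The recovered fragments gave depths, exact counting intervals of 95% and floors of 3 fragments, which cover counting error only. They were also tested with voom as an alternative.

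A linear model with a mean for each of the 4 groups was fitted to log2(FPKM + 1) of the 12578 genes in limma 3.58.1 (R 4.3.3, statmod 1.5.0) with a trended prior. Residual degrees of freedom were 8, and the prior added 3.28. Benjamini-Hochberg adjustment ran over all tested genes. A gene was called at an adjusted p under 0.05, and log2 fold changes had an SE of 0.0658 at the median. Called genes of at least 2-fold were counted on the same scale. The fit was checked on simulated counts with known changes. The 57 gene lists were described by counts, medians and summed FPKM, with no test of a list. Named genes were the 30 largest rises and falls with no overlap between the groups, the largest gains and losses in FPKM, the leading genes of each list, 5 long noncoding RNAs in each direction, all members of the vitamin D and calcium lists, and the highest genes that did not pass. AARS, CARS, EPRS, CAMP, CD14, CEACAM6, CYP3A7, IMP3, RPL39L and SLC34A2 lie outside this rule and were chosen after their values were seen, as were the transcription factor families. The members, lists and rules were chosen with earlier results of these data known. Figures and preparation used Python 3.11.15, numpy 2.4.6, pandas 2.3.3, SciPy 1.17.1 and matplotlib 3.10.9. The 22 alternatives changed the pseudocount, filter, scaling, prior, weights, fitted libraries, test or gene class, added a replicate block, or omitted a library, each of the 6 in turn.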

Additional observations from a re-analysis of the deposited data

Results flagged for a closer look

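The effect of VD3 differed in the presence of VPA for 11 of the 20 genes with the largest rises and falls, by the interaction in limma with Benjamini-Hochberg adjustment over all 12578 genes. The interaction passed for 44.3% of all genes, for 58.8% of those at least 2-fold higher with VD3 alone and for 76.2% of those at least 2-fold lower, and the 20 genes were picked on the same VD3 and Control libraries, so the count says nothing particular to them. Values are the change with VD3VPA against VPA minus the change with VD3 against Control, on the log2(FPKM + 1) scale. Among rises, the interaction was -1.76 for C6orf15 (adjusted p 5.69e-06), which rose by 5.01 with VD3 alone and by 3.25 with VPA. It was 1.199 for CYP3A4 (adjusted p 3.55e-06) and 1.153 for PRODH2 (adjusted p 0.000504), both of which rose further with VPA.

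Among falls, the interaction was 0.78 for TDO2, 2.43 for NPW, 2.17 for AKR1B10 and 0.78 for AGR3. It was 0.91 for RPL22L1, 1.13 for FABP5 and 0.65 for HSPD1. All of these fell less with VPA, and their adjusted p lay between 4.38e-05 for AKR1B10 and 0.0105 for AGR3. For BOLA2B the interaction was 4.27 (adjusted p 0.0462). BOLA2B is uncertain because BOLA2 is a near-identical copy, its Control libraries varied widely (20.3 ± 16.6 FPKM), and its fall with VD3 lost its call when any library other than Control replicate 3 was left out, with adjusted p up to 0.14.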

How the results depend on the processing

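No called gene among those recomputed reversed its direction. Over the pseudocount of 0.1, the replicate block, equal FPKM sums and leaving out each library, 3379 gene values kept their side of the threshold, 43 lost the call and 7 gained it. Of list counts 1420 stayed within 1.5 times and 62 moved by more, and of totals 105 stayed and 9 moved. A limma treat test against a fold of 1.2 called 3297 genes, 1671 higher and 1626 lower. The number at least 2-fold higher rose to 835 with a pseudocount of 0.1, to 891 with voom on recovered fragments and to 884 with voom on the VD3 and Control libraries only, an alternative added after seeing the data. The numbers at least 2-fold lower were 679, 722 and 727. In each of these the cause was not tested, though a pseudocount of 1 compresses changes of low genes by construction. Scaling to equal FPKM sums gave 3412 higher and 4289 lower.

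Leaving out each library in turn gave 3609 to 3799 genes higher and 3512 to 3821 lower. The replicate numbers are not said to pair the libraries. Deviations of same-numbered Control and VD3 libraries correlated at 0.0348, -0.0652 and 0.000577, and those of unlike numbers at -0.115 to 0.115. With 3 libraries in each group these values cannot decide whether the libraries were paired. With the replicate block 3897 genes were higher and 3877 lower. FPKM below 1 rest on few fragments, and the 46157 genes under the filter were not tested here.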

Other observations

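Of 28 tested genes of glycolysis and gluconeogenesis 8 rose, 8 fell (5 without Control replicate 1, VD3 replicate 2 or VD3 replicate 3) and 12 did not pass, near the shares of all genes. The platelet-type phosphofructokinase PFKP rose from 11.7 ± 1.499 to 38.0 ± 4.07 FPKM and PCK1, which starts glucose synthesis, from 0.368 ± 0.0358 to 4.18 ± 0.430 FPKM, whereas the enolase ENO1 fell from 259 ± 20.4 to 118 ± 10.54 FPKM. The fructose carrier SLC2A5 fell from 10.2 ± 1.146 to 2.83 ± 0.654 FPKM and SLC43A1, a carrier of large neutral amino acids, from 4.54 ± 0.518 to 0.521 ± 0.0626 FPKM. Over all 220 tested solute carriers 85 rose and 70 fell, near the share of all genes, and with libraries scaled to their own totals 74 rose and 88 fell.

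Genes of cell fate signalling changed in both directions. In the Control libraries the Notch ligand JAG1 was at 18.9, 18.3 and 19.7 FPKM, against 6.39, 7.91 and 6.29 FPKM with VD3, while ID4, an inhibitor of bHLH factors, rose from 20.5 ± 3.93 to 53.5 ± 4.08 FPKM. The Wnt target AXIN2 fell from 0.855 ± 0.120 to 0.179 ± 0.0836 FPKM, and the RNA-binding protein MSI1 rose from 0.700 ± 0.0203 to 4.17 ± 0.153 FPKM. In the matrix, SPARC rose from 48.1 ± 1.65 to 149.8 ± 31.6 FPKM, LAMB3 from 83.4 ± 3.06 to 221 ± 11.98 FPKM and TIMP2 from 13.3 ± 1.83 to 44.0 ± 3.89 FPKM, and COL5A2 fell from 25.6 ± 1.95 to 11.1 ± 1.24 FPKM. Of 6 tested mesenchymal markers 3 rose, SPARC among them, and their part in these values was not tested.

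Long noncoding RNAs had 272 of 940 genes higher, 194 lower and 474 not past. Both directions lay below the shares over all genes, 31.3% higher and 31.2% lower. Of those with no overlap between groups LINC01996 fell furthest, from 7.91 ± 2.37 to 0.411 ± 0.153 FPKM, and AP003119.3 rose from 0.629 ± 0.0758 to 8.41 ± 0.726 FPKM. Without a stated strand setting, fragments of overlapping genes may be counted in both.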
